A study of Mus musculus with 23 samples.

Results

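The genes described here are 10 transcripts used to mark monocytes recruited to the lung and the macrophages of its interstitium: Ccr2, Cx3cr1, Itgam, Adgre1, Fcgr4, Ms4a7, Apoe, Spp1, Gpnmb and Csf1r. They were taken by symbol from the 41388 Ensembl genes of the deposited count table, and each symbol matched 1 gene ID. All 10 passed the filter on low counts that left 17148 genes for testing. Each of 23 libraries holds the lung RNA of a single male Balb/c mouse. Mice of the groups LPS + recAAT, LPS + oxAAT and LPS + nAAT (n = 5 each) breathed LPS, a bacterial endotoxin, as an aerosol of 0.21 mg/ml, in sessions of 10 min on 3 days. After an interval of 1 h they were each time given 4 mg/kg human alpha1-antitrypsin (AAT), an inhibitor of neutrophil elastase, into the peritoneum as recombinant, oxidized or native protein. LPS only mice (n = 5) had the same exposures without AAT, and Clean Air mice (n = 3) breathed clean air instead. The labels' protocol names saline as the injection without AAT and ends the experiment 6 h after the last injection. Below, the groups are called LPS+recAAT, LPS+oxAAT, LPS+nAAT, LPS and air. Lung tissue pools all cell types, so fewer cells of a type and less RNA per cell cannot be told apart in these values.

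Monocytes leave the bone marrow through CCR2, the receptor for the chemokine CCL2, and in tissue they can become macrophages that depend on the growth factor receptor CSF1R. In the lung such cells lie beside the resident populations, the alveolar macrophages of the airspace and the interstitial macrophages around vessels and bronchi. Macrophages that take up debris and lipid are known to make APOE, GPNMB and SPP1. None of the 10 genes is restricted to a single cell type. ITGAM is also found on neutrophils, CX3CR1 on natural killer cells, and Apoe and Spp1 transcripts are made by other lung cells too.

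The level of each gene was expressed as CPM, its count scaled to a common library size after TMM normalization. Gene counts per library ran from 14760113 to 47850884, and the members had between 66 counts (the lowest library of Ms4a7) and 17545 counts (the highest of Apoe). Libraries fell into 2 sets, for which the labels have no name. In 15 of them the count of mt-Nd6 was 0.338% to 1.14% of that of mt-Nd5, and in 8 it was 3.39% to 4.50%. Both are mitochondrial genes, encoded on opposite strands. The second set holds all 5 LPS+recAAT libraries and LPS+oxAAT replicates 5103, 5104 and 5105. All other libraries are in the first set, so comparisons among LPS+nAAT, LPS and air lie within it. None of 6 alveolar type 2 markers, which mark lung tissue, was at 0 in any group.

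The promoters of Ms4a7 and Gpnmb are shown because both genes rose after LPS, and that of Spp1 because it rose with native AAT. Each line gives the 250 bases before the RefSeq start furthest upstream, on the gene's own strand, from build GRCm38.p6. They are chr19:11336147-11336396 (minus strand), chr6:49036268-49036517 (plus strand) and chr5:104434861-104435110 (plus strand).
Ms4a7: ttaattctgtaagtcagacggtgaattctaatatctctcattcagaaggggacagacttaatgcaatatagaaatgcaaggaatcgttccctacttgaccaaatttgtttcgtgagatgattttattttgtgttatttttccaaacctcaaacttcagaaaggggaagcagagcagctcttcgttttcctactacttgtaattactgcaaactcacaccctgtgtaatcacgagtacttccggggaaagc
Gpnmb: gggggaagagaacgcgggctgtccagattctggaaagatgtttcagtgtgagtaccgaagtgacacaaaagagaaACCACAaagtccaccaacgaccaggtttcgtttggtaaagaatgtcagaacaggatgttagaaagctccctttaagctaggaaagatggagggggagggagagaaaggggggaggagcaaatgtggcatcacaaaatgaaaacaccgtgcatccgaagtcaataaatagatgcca
Spp1: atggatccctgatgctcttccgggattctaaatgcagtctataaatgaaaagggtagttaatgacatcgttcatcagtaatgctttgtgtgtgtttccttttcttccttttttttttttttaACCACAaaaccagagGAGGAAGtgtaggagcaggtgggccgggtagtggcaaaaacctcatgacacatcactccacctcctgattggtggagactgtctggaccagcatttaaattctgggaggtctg
Capitals mark matches, on either strand, to GAGGAAG (the core bound by PU.1, a myeloid transcription factor), TGANTCA (AP-1) or TGTGGT (RUNX). The 3 motifs do not overlap in these windows. GAGGAAG starts 113 bases before the start of Spp1. TGTGGT lies on the opposite strand 128 bases before the start of Spp1 and 175 bases before that of Gpnmb, and this Ms4a7 window holds none of the motifs. Among all 12 windows of 8 members, which include further starts, GAGGAAG is also in windows of Fcgr4 and Itgam, TGTGGT in windows of Cx3cr1 and Fcgr4, and TGANTCA in another window of Ms4a7. Of 32851 promoter windows of the same length, 10.6% hold GAGGAAG, 6.75% TGANTCA and 14% TGTGGT, so each motif is common, and a match describes the letters only.

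Repeated LPS inhalation raised Adgre1, Ms4a7 and Gpnmb by 1.83- to 2.13-fold, and the recruitment receptor Ccr2 did not pass the test. Of the 10 genes, 3 were called higher in LPS than in air and none lower (adjusted p under 0.05, edgeR quasi-likelihood test with Benjamini-Hochberg adjustment), where 4.39% of all 17148 tested genes were called in either direction and 2.71% were called higher. The median log2 fold change of the 10 was 0.29, against -0.01 over all tested genes. The LPS and air libraries did not overlap for these 3 genes and for Csf1r, with the LPS libraries higher, as they also were at 5.31% of all tested genes.

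Adgre1 encodes F4/80, an adhesion receptor of mature mouse macrophages. Its level was 43.0, 42.5, 55.9, 50.3 and 49.6 CPM in the 5 LPS lungs, against 27.24, 24.52 and 22.03 CPM in the 3 air lungs. Every LPS library was above every air library, and the log2 fold change was 0.97 ± 0.17, adjusted p = 0.000484. Ms4a7, a membrane protein of the MS4A family found in macrophages that arise from monocytes, had the largest change of the 10. It measured 6.49, 5.76, 5.49, 5.41 and 5.08 CPM in LPS and 2.49, 2.14 and 3.33 CPM in air, with no overlap. Its log2 fold change was 1.09 ± 0.15, adjusted p = 5.37e-05, a 2.13-fold difference. Gpnmb, a lysosomal and surface glycoprotein of lipid-laden macrophages, measured 45.4, 36.0, 41.7, 35.0 and 46.3 CPM in LPS and 25.4, 19.9 and 21.8 CPM in air. Here too the groups lay apart, with a log2 fold change of 0.87 ± 0.16, adjusted p = 0.00119. The 3 calls remained when any single LPS or air library was left out.

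The receptors that bring monocytes to tissue did not pass. Ccr2 was 46.6, 27.7, 43.6, 32.2 and 54.0 CPM in LPS and 37.7, 59.6 and 41.3 CPM in air. Both groups overlapped widely, and air replicate 2102 had the highest value of the 8. Its log2 fold change was -0.18 ± 0.23, adjusted p = 0.741, with a 95% interval of -0.64 to 0.29. Without air replicate 2102 it was 0.05, so even its sign rests on that mouse. Cx3cr1, the receptor for the membrane-bound chemokine CX3CL1, ranged from 14.2 to 22.6 CPM in LPS and from 14.9 to 19.4 CPM in air (0.12 ± 0.15, adjusted p = 0.751). Itgam, the alpha chain of the integrin Mac-1 used by monocytes and neutrophils to leave vessels, ranged from 27.8 to 44.4 CPM in LPS and from 22.5 to 35.7 CPM in air (0.35 ± 0.16, adjusted p = 0.248).

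Fcgr4, an activating receptor for immunoglobulin G found on monocytes without Ly6c, had the lowest log2 fold change of the 10. It was 6.13, 5.81, 7.19, 4.15 and 4.91 CPM in LPS and 9.49, 8.50 and 6.76 CPM in air, where LPS replicate 1103 lay above air replicate 2105. The log2 fold change of -0.55 ± 0.21 did not pass (adjusted p = 0.142). Csf1r, the receptor for CSF1 on which macrophages depend, was 210.5, 204, 192, 221 and 176 CPM in LPS and 175, 167 and 149 CPM in air. All 5 LPS libraries were higher than all 3 of air, but the log2 fold change of 0.29 ± 0.10 missed the threshold (adjusted p = 0.114). Of the exon length of Csf1r, 15.1% lies opposite exons of Hmgxb3 on the other strand, and the strand setting of the counting is not given in the sources used here. Apoe, a lipid carrier secreted by macrophages, ranged from 322 to 411 CPM in LPS and from 303 to 407 CPM in air (0.12 ± 0.12, adjusted p = 0.653). Spp1, which encodes the secreted phosphoprotein osteopontin, ranged from 57.0 to 75.2 CPM in LPS and from 48.3 to 60.8 CPM in air (0.28 ± 0.14, adjusted p = 0.313).

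**Figure D1:**
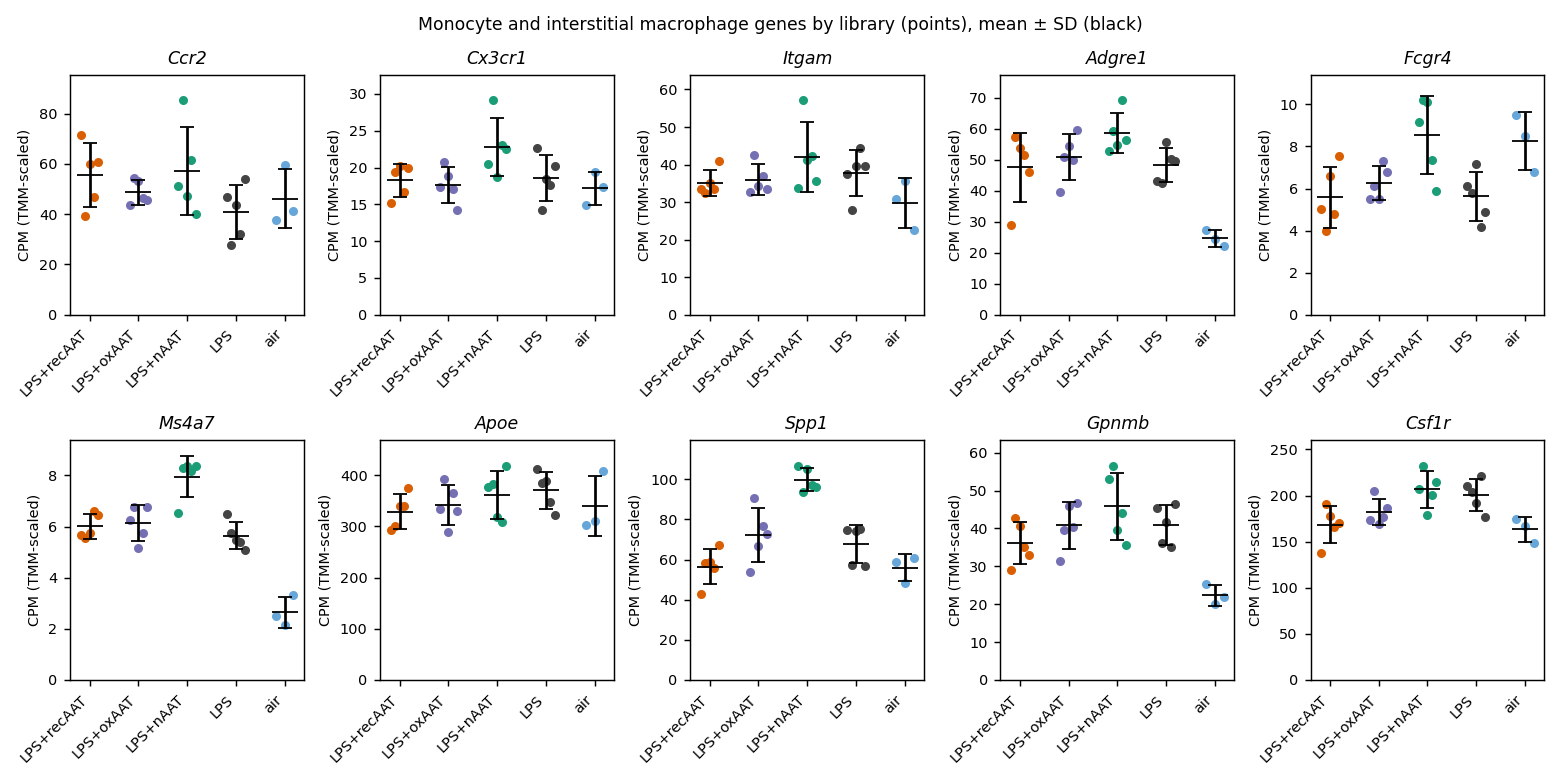
TMM-scaled CPM of the 10 genes (y axes, from 0) in every library (points) of the 5 groups (x axes), with mean ± SD in black. Air libraries lie below all LPS libraries for Adgre1, Ms4a7 and Gpnmb, and the 5 LPS+nAAT libraries lie above all LPS libraries for Spp1 and Ms4a7.

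Other genes of these pathways and cells were read from lists that leave out the members. Of 7 ligands of the member receptors, 5 rose and none fell (median log2 fold change 1.47), among them Csf1, a ligand of CSF1R (84.9 CPM against 51.8 CPM; 0.71 ± 0.10, adjusted p = 5.04e-05). Ccl2 (1.92 CPM against 0.458 CPM; 2.06 ± 0.42, adjusted p = 0.00343) and Ccl12 (1.88 ± 0.38, adjusted p = 0.00367) encode ligands of CCR2. Of 12 genes of lipid-associated macrophages, 6 rose and none fell (median 0.41), led by the lysosomal protease gene Ctsk (1.64 ± 0.14, adjusted p = 1.41e-08), with Ctsb (0.46 ± 0.09, adjusted p = 0.00339) and the lipase gene Lpl (0.75 ± 0.16, adjusted p = 0.0044). Of 17 interstitial macrophage markers, 4 rose and 1 fell (median 0.38). The complement genes C1qc (0.89 ± 0.13, adjusted p = 7.28e-05), C1qb (0.82 ± 0.14, adjusted p = 0.000469) and C1qa (0.84 ± 0.15, adjusted p = 0.000574) led these rises. Of 9 other Ms4a genes, 2 rose, Ms4a6d (0.81 ± 0.15, adjusted p = 0.00166) and Ms4a8a (0.52 ± 0.15, adjusted p = 0.0479), while Ms4a14 did not pass (1.34 ± 0.51, adjusted p = 0.152) and the median of the 9 was -0.03.

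Among 5 Fc receptor genes, 1 rose, Fcer1g, the signalling chain shared by activating Fc receptors (0.82 ± 0.15, adjusted p = 0.0013), and Fcgr2b (0.44 ± 0.15, adjusted p = 0.108) and Fcgr3 (0.30 ± 0.13, adjusted p = 0.189) did not pass. Of 6 genes of the integrins that contain the beta2 chain and of their ligands, 2 rose: Itgax (1.04 ± 0.12, adjusted p = 6.27e-06) and Itgb2, the chain that pairs with ITGAM (0.51 ± 0.13, adjusted p = 0.0178). Icam1, a ligand of Mac-1, had 0.39 ± 0.12, adjusted p = 0.0517. Of 8 tested genes of the colony-stimulating factor pathway, 4 rose, with Csf2rb (162 CPM against 81.1 CPM, adjusted p = 1.46e-05), Csf2 (1.37 ± 0.25, adjusted p = 0.000943) and the transcription factor gene Egr2 (1.20 ± 0.24, adjusted p = 0.00269) of smallest p. Of 9 markers of classical monocytes, 2 rose, Cd14, the LPS co-receptor (2.23 ± 0.16, adjusted p = 1.18e-09), and the haptoglobin gene Hp (0.87 ± 0.15, adjusted p = 0.00045), while Chil3 did not pass (0.57 ± 0.24, adjusted p = 0.21). Of 10 markers of non-classical monocytes, Pglyrp1 rose (1.51 ± 0.22, adjusted p = 7.59e-05), Ear2 fell (-0.61 ± 0.17, adjusted p = 0.0398), and Cd36 had -0.44 ± 0.14, adjusted p = 0.0678.

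Markers of other cells and cell cycle genes were read in the same comparison. The summed level of 14 alveolar macrophage markers ranged from 1068 to 1299 CPM in LPS and from 769 to 871 CPM in air. Of the 14, 5 rose, with Itgax, Marco (2.60 ± 0.32, adjusted p = 9.77e-06) and Car4 (0.72 ± 0.11, adjusted p = 9.32e-05) of smallest p, and 9 were not called. Much of the sum came from Car4 (314 CPM in LPS, 190 CPM in air) and Chil3 (287 CPM and 193 CPM). Chil3 is also among the classical monocyte markers above, and which cells made Car4 cannot be read from whole lung. For 13 neutrophil markers the sum ranged from 372 to 494 CPM in LPS and from 232 to 326 CPM in air. Of these 13, Il1r2 rose (2.06 ± 0.34, adjusted p = 0.000406), and Mmp9 (0.61 ± 0.19, adjusted p = 0.0665) and Cxcr2 (0.74 ± 0.25, adjusted p = 0.0942) did not pass. No marker of either list was at 0 in all libraries of a group. All 8 cell cycle genes rose (median 1.23), with Bub1b (1.38 ± 0.14, adjusted p = 3.3e-07) of smallest p. The part of these cells in the changes of Adgre1, Gpnmb and Ms4a7, and of neutrophils in the level of Itgam, was not tested. Of 8 markers of natural killer cells, which also express Cx3cr1, 7 passed the count filter and none passed (median 0.02, 1 at an unadjusted p under 0.05). None of the markers of B cells (6), T cells (7), alveolar type 2 cells (6), alveolar type 1 cells (5), endothelium (5), fibroblasts (6) or heart muscle (6) passed, with 1 alveolar type 2 gene at an unadjusted p under 0.05, where 18.1% of all tested genes were. Among dendritic cell markers 2 of 9 rose, among markers of mesothelium and airway 1 of 5 rose, and of 3 testable eosinophil markers 1 fell. That was Il5ra, with a very low level (0.229 CPM in LPS, 0.65 CPM in air) and overlapping libraries. The other 2 eosinophil markers had values above 0 and did not pass.

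With native AAT after LPS, Spp1 was higher than with LPS alone, and the other 9 genes did not pass. Of the 10, 1 was called higher in LPS+nAAT than in LPS and none lower, where 0.595% of all tested genes were called. The median log2 fold change of the 10 was 0.28, against 0.00 over all tested genes, and 9 of the 10 values were above 0. Spp1 measured 107, 93.5, 105, 97.1 and 96.2 CPM in the LPS+nAAT lungs and 74.9, 57.3, 74.2, 75.2 and 57.0 CPM in the LPS lungs. The lowest LPS+nAAT library lay above the highest LPS library, and above all libraries of the other groups. Its log2 fold change was 0.56 ± 0.12, adjusted p = 0.0354. Leaving out 1 library kept it between 0.49 and 0.60, yet the adjusted p passed in 2 of 10 such fits and reached 0.0935 without LPS replicate 1102. The call was also lost in the first library set alone (0.55, adjusted p = 0.0688) and in a fit of only these 2 groups (adjusted p = 0.0544).

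Ms4a7 was 6.54, 8.29, 8.38, 8.17 and 8.36 CPM in LPS+nAAT and 6.49, 5.76, 5.49, 5.41 and 5.08 CPM in LPS. The groups lay apart by a small margin, since LPS+nAAT replicate 4101 came close to LPS replicate 1101. Its log2 fold change of 0.49 ± 0.12 just missed the threshold (adjusted p = 0.0585). It passed without LPS+nAAT replicate 4101 (adjusted p = 0.0456) and by the DESeq2 Wald test (adjusted p = 0.00691). Spp1 and Ms4a7 were the members whose LPS+nAAT libraries were all above those of LPS, which held for 1.99% of all tested genes.

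Fcgr4 was 9.18, 10.2, 10.1, 7.37 and 5.90 CPM in LPS+nAAT and 6.13, 5.81, 7.19, 4.15 and 4.91 CPM in LPS. LPS+nAAT replicate 4105 lay among the LPS libraries and the other 4 above them. The log2 fold change of 0.60 ± 0.18 did not pass (adjusted p = 0.114, 95% interval 0.23 to 0.97), while the DESeq2 Wald test called it (adjusted p = 0.0447). Ccr2 spread widely, with 51.3, 85.3, 47.2, 61.6 and 40.2 CPM in LPS+nAAT and 46.6, 27.7, 43.6, 32.2 and 54.0 CPM in LPS. LPS+nAAT replicate 4102 was the highest of all 23 libraries, and the groups overlapped (0.48 ± 0.20, adjusted p = 0.247).

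For Cx3cr1 the log2 fold change was 0.29 ± 0.13, adjusted p = 0.3, and for Itgam 0.15 ± 0.14, adjusted p = 0.63, and replicate 4102 was the highest library of both. Adgre1 had 0.28 ± 0.14, adjusted p = 0.345, with 52.8 to 69.2 CPM in LPS+nAAT and 42.5 to 55.9 CPM in LPS. Gpnmb (0.16 ± 0.13, adjusted p = 0.584), Csf1r (0.04 ± 0.09, adjusted p = 0.866) and Apoe (-0.04 ± 0.11, adjusted p = 0.902) did not pass, with 95% intervals of -0.11 to 0.44, -0.14 to 0.23 and -0.26 to 0.18.

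Of the 9 other Ms4a genes, all 9 had values above 0 (median 0.42), 5 had an unadjusted p under 0.05, as had 14.7% of all tested genes, and 0 were called. None of 12 genes of lipid-associated macrophages passed (median 0.19, 4 at an unadjusted p under 0.05), nor did any of 17 interstitial macrophage markers (median -0.05, 2 unadjusted) or of 7 ligands of the member receptors (median -0.19, 2 unadjusted). Of 14 alveolar macrophage markers, 1 rose, Olr1, a scavenger receptor for oxidized lipoprotein (0.58 ± 0.13, adjusted p = 0.0338). The median of the 14 was 0.36, with 12 values above 0 and 8 at an unadjusted p under 0.05. Their summed level ranged from 1300.0 to 1632 CPM in LPS+nAAT and from 1068 to 1299 CPM in LPS. It includes Chil3, with means of 387 CPM and 287 CPM in the same order. The sum over 13 neutrophil markers ranged from 297 to 750.1 CPM in LPS+nAAT and from 372 to 494 CPM in LPS, with no call among them (5 unadjusted). The median of the 13 was 0.55, with 10 values above 0. The medians of the alveolar macrophage and neutrophil lists were thus above the 0.28 of the 10 members. Of 8 cell cycle genes, 6 rose, with Ccna2 (1.02 ± 0.14, adjusted p = 0.00138) and Rrm2 (0.70 ± 0.11, adjusted p = 0.0053) of smallest p. The part of these cells in the values of Spp1 and Ms4a7 was not tested.

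**Figure D2:**
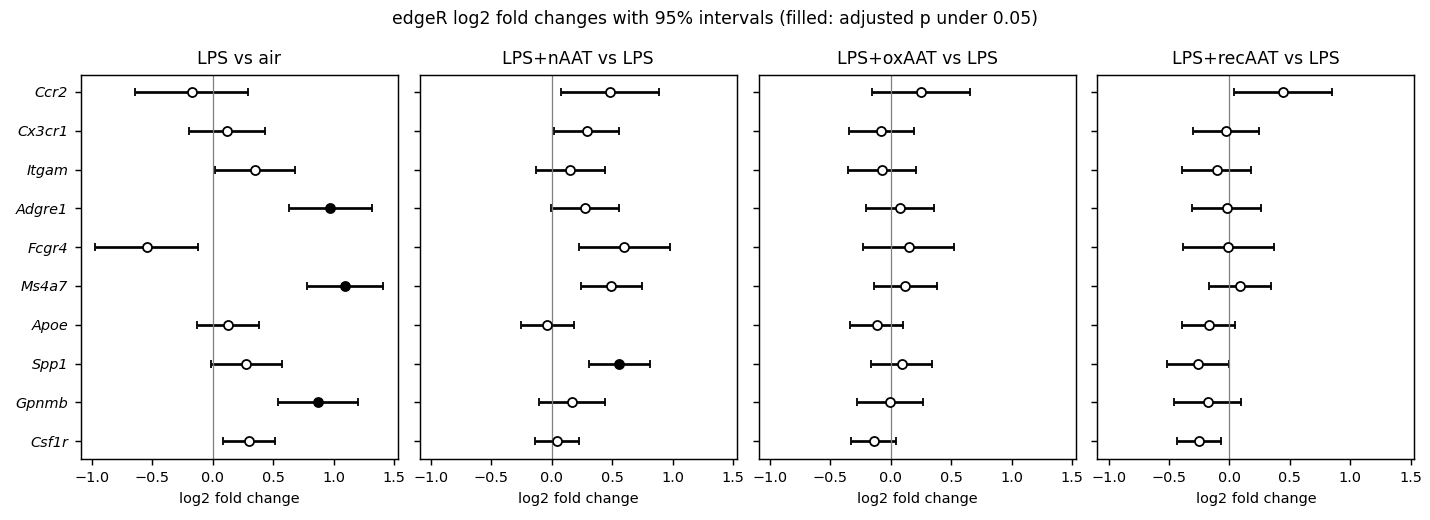
Log2 fold changes (x axes) of the 10 genes (y axis) from edgeR with 95% intervals, for LPS relative to air and for the 3 AAT groups relative to LPS. Filled points passed at an adjusted p under 0.05: Adgre1, Ms4a7 and Gpnmb after LPS, and Spp1 with native AAT.

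With oxidized or recombinant AAT after LPS, none of the 10 genes passed against LPS. For LPS+oxAAT, 0 of the 10 were called by edgeR and by the DESeq2 Wald test, where 4.71% of all tested genes were called by edgeR. None of the 10 had an unadjusted p under 0.05, against 20.2% of all tested genes. For LPS+recAAT, 0 were called by either tool, where 8.49% of all tested genes were called by edgeR. At an unadjusted p under 0.05 were 3 of the 10, near the 23.7% of all tested genes. All LPS+recAAT and 3 LPS+oxAAT libraries are of the second set and all LPS libraries of the first, so set and AAT can be told apart only through LPS+oxAAT, which has libraries of both.

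Among the members, Csf1r came closest to the threshold with recombinant AAT. It was 138, 190.5, 178, 166 and 170.1 CPM in LPS+recAAT and 210.5, 204, 192, 221 and 176 CPM in LPS. LPS+recAAT replicate 6101 was the lowest library, and replicates 6102 and 6103 lay within the LPS range. Its log2 fold change was -0.25 ± 0.09, adjusted p = 0.0815. It passed without LPS replicate 1105 (adjusted p = 0.0346), and with the library set in the model it was -0.16 (adjusted p = 0.872).

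Spp1 was 42.7, 58.3, 58.7, 55.8 and 67.0 CPM in LPS+recAAT, 53.8, 90.5, 67.0, 76.5 and 72.8 CPM in LPS+oxAAT and 74.9, 57.3, 74.2, 75.2 and 57.0 CPM in LPS. It was thus low in LPS+recAAT replicate 6101 and ran past the LPS range at both ends in LPS+oxAAT. The log2 fold change was -0.26 ± 0.12, adjusted p = 0.198 for LPS+recAAT and 0.09 ± 0.12, adjusted p = 0.715 for LPS+oxAAT. Ccr2 had 0.45 ± 0.20, adjusted p = 0.166 for LPS+recAAT and 0.25 ± 0.20, adjusted p = 0.492 for LPS+oxAAT. With recombinant AAT the other 7 genes lay between -0.18 (Gpnmb) and 0.09 (Ms4a7). With oxidized AAT the other 8 genes lay between -0.14 (Csf1r) and 0.15 (Fcgr4). The 95% interval of Adgre1 was -0.31 to 0.26 with recombinant and -0.21 to 0.36 with oxidized AAT, and that of Gpnmb was -0.46 to 0.09 and -0.28 to 0.27 in the same order.

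Single genes of the related lists passed in these comparisons. Treml4 (-0.63 ± 0.13, adjusted p = 0.00428) and Nr4a1, a transcription factor on which non-classical monocytes depend (-0.82 ± 0.22, adjusted p = 0.0224), fell in LPS+recAAT, 2 of 10 markers of that cell. Of 17 interstitial macrophage markers, Maf, a transcription factor of tissue macrophages, rose in LPS+recAAT (0.71 ± 0.14, adjusted p = 0.00255) and in LPS+oxAAT (0.61 ± 0.14, adjusted p = 0.0144), and Stab1, a scavenger receptor, fell in LPS+recAAT (-0.37 ± 0.12, adjusted p = 0.0472). Olr1 rose with both, by 0.51 ± 0.13 in LPS+recAAT (adjusted p = 0.013) and by 0.51 ± 0.13 in LPS+oxAAT (0.0227). Of 8 cell cycle genes, 4 rose in LPS+recAAT, with Ccna2 (0.93 ± 0.14, adjusted p = 0.000665) and Ccnb1 (0.93 ± 0.17, adjusted p = 0.00159) of smallest p, and 1 rose in LPS+oxAAT, Ccna2 (0.62 ± 0.14, adjusted p = 0.0158). The 3 comparisons with LPS share its 5 libraries. All LPS+recAAT and 3 LPS+oxAAT libraries are of the second set and all LPS libraries of the first. The fit with the set in the model was read for the 10 members only. Whether the calls of these list genes hold in it was not tested.

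The 3 AAT groups were then set against each other. Of 10 genes, 1 was called between LPS+recAAT and LPS+nAAT (1.93% of all tested genes), 0 between LPS+oxAAT and LPS+nAAT (0.344%) and 0 between LPS+recAAT and LPS+oxAAT (0.0175%). Spp1 was lower in LPS+recAAT, at 56.5 ± 8.79 CPM, than in LPS+nAAT, at 99.8 ± 5.87 CPM (SD, n = 5 each). No library overlapped, as held in this direction for 2.05% of all tested genes, and the log2 fold change was -0.82 ± 0.12, adjusted p = 0.00202. All LPS+recAAT libraries are of the second set and all LPS+nAAT libraries of the first. With the set in the model the value was -0.81 and did not pass (adjusted p = 0.315). In LPS+oxAAT, Spp1 averaged 72.1 ± 13.4 CPM, with all libraries below those of LPS+nAAT (as at 1.32% of all tested genes), and the difference did not pass (-0.47 ± 0.12, adjusted p = 0.0925).

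Fcgr4 (-0.61 ± 0.18, adjusted p = 0.0828), Csf1r (-0.29 ± 0.09, adjusted p = 0.0928) and Ms4a7 (-0.41 ± 0.12, adjusted p = 0.0935) were also lower in LPS+recAAT than in LPS+nAAT without passing. The DESeq2 Wald test called 3 members there: Spp1, Fcgr4 (adjusted p = 0.0358) and Ms4a7 (0.0299). The share of all tested genes that DESeq2 called was not counted, so this count cannot be set against that of other genes. Without LPS+recAAT replicate 6105, edgeR called 2, Spp1 and Fcgr4 (adjusted p = 0.0422). The other 6 members had values between -0.35 (Gpnmb) and -0.04 (Ccr2) there, with adjusted p of at least 0.198. In LPS+oxAAT against LPS+nAAT the 9 members other than Spp1 lay between -0.45 (Fcgr4) and -0.08 (Apoe), with adjusted p of at least 0.201. Between LPS+recAAT and LPS+oxAAT the largest difference was that of Spp1 (-0.35 ± 0.12, adjusted p = 1, 95% interval -0.61 to -0.10), the 1 of 10 genes at an unadjusted p under 0.05, where 2.9% of all tested genes were. The other 9 lay between -0.18 (Gpnmb) and 0.19 (Ccr2).

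The genes that rose after LPS were also above air in the mice given AAT. These comparisons share the 3 air libraries with that of LPS, so their values are given side by side. For Ms4a7 the log2 fold change against air was 1.18 ± 0.15 in LPS+recAAT, 1.21 ± 0.15 in LPS+oxAAT, 1.59 ± 0.16 in LPS+nAAT and 1.09 ± 0.15 in LPS, with adjusted p from 1.28e-07 to 5.37e-05. It was 0.95 ± 0.17, 1.05 ± 0.17, 1.25 ± 0.17 and 0.97 ± 0.17 for Adgre1 in the same groups (adjusted p from 1.31e-05 to 0.000484). For Gpnmb it was 0.69 ± 0.16, 0.87 ± 0.16, 1.03 ± 0.16 and 0.87 ± 0.16 (adjusted p from 9.76e-05 to 0.00663). Spp1 passed against air in LPS+nAAT (0.84 ± 0.15, adjusted p = 0.000431) and did not in LPS+recAAT (0.02 ± 0.14, adjusted p = 0.975), LPS+oxAAT (0.37 ± 0.14, adjusted p = 0.2) or LPS. Csf1r in LPS+nAAT lay above all air libraries, as held for 6.95% of all tested genes, and did not pass (0.34 ± 0.10, adjusted p = 0.0583). It passed by the DESeq2 Wald test (adjusted p = 0.0272) and without LPS+nAAT replicate 4103 (0.0293). In all, 3 of 10 members were called against air in LPS+recAAT, 3 in LPS+oxAAT and 4 in LPS+nAAT, all higher, where 6.83%, 3.76% and 5.62% of all tested genes were called in these groups, and 4.21%, 2.72% and 3.95% were called higher.

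The members not called against air in any AAT group included the receptors that bring monocytes to tissue. Itgam had 0.24 ± 0.16, adjusted p = 0.47 in LPS+recAAT, 0.28 ± 0.16, adjusted p = 0.461 in LPS+oxAAT and 0.50 ± 0.16, adjusted p = 0.0723 in LPS+nAAT. The last of these passed by the DESeq2 Wald test (adjusted p = 0.0392), without LPS+nAAT replicate 4101 (0.0397) and without air replicate 2102 (0.0437). Ccr2 had 0.27 ± 0.23, 0.07 ± 0.23 and 0.31 ± 0.23 in the same groups, with adjusted p of at least 0.57. For Cx3cr1 the values were 0.09 ± 0.15, 0.04 ± 0.15 and 0.41 ± 0.15, with adjusted p of at least 0.142. Fcgr4 had -0.56 ± 0.21, -0.40 ± 0.21 and 0.05 ± 0.21, with adjusted p of at least 0.116, and the value in LPS+recAAT passed without replicate 6105 (-0.70, adjusted p = 0.0442). Apoe lay between -0.05 and 0.09, and Csf1r had 0.04 ± 0.10, adjusted p = 0.894 in LPS+recAAT and 0.15 ± 0.10, adjusted p = 0.554 in LPS+oxAAT.

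With the library set in the model, Ms4a7 kept its call against air in LPS+recAAT (1.33, adjusted p = 0.00195), but Adgre1 (0.67, 0.208) and Gpnmb (0.37, 0.499) did not. Gpnmb in LPS+recAAT also lost its call without air replicate 2102 (0.0565). In LPS+oxAAT, Gpnmb did not pass with the set in the model (0.67, 0.0565) or in the first set alone (0.68, 0.0955). The first set holds 2 LPS+oxAAT libraries.

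Ordered by mean CPM over the 5 groups, LPS+nAAT had the highest mean for 9 of the 10 genes, and LPS for Apoe. The share of all tested genes with their highest mean in LPS+nAAT was not counted, so this order is not a result about the 10. Against LPS, only Spp1 was called in LPS+nAAT. A gap to the next group larger than the wider of the 2 SDs followed LPS+nAAT for Cx3cr1, Adgre1, Ms4a7 and Spp1. For Adgre1 and Ms4a7 the other such gap lay above air, which was lowest, as did the only gap of Gpnmb. For Spp1 the other gap lay between LPS and LPS+recAAT, and the only gap of Csf1r lay between LPS and LPS+oxAAT. Fcgr4 ran differently: LPS+nAAT (8.55 ± 1.87 CPM) and air (8.25 ± 1.38 CPM) were the upper pair, above LPS+oxAAT (6.25 ± 0.807 CPM), LPS (5.63 ± 1.16 CPM) and LPS+recAAT (5.58 ± 1.44 CPM). The means of Ccr2, Itgam and Apoe held no gap of that size.

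Divided by exon length, the level of Apoe was highest in every group and that of Ms4a7 lowest. Apoe had 154 ± 15.7 CPM per kb in LPS+recAAT, 173 ± 16.7 in LPS and 159 ± 27.3 in air, and Ms4a7 had 1.35 ± 0.111, 1.27 ± 0.119 and 0.596 ± 0.137 CPM per kb (SD). Spp1 and Csf1r followed Apoe in LPS, at 41.1 ± 5.87 and 34.8 ± 2.98 CPM per kb, then Adgre1 at 14.9 ± 1.72. The levels of Itgam, Gpnmb, Ccr2, Fcgr4 and Cx3cr1 lay between 4.13 and 7.52 CPM per kb in LPS. Exon lengths are the union over GENCODE transcripts, from 1.26 kb (Fcgr4) to 6.76 kb (Ccr2). The genes lie apart in the genome (GRCm38), except that Cx3cr1 (chr9:119901616-120069879) and Ccr2 (chr9:124101950-124113557) both lie on chromosome 9 and Apoe (chr7:19696109-19699188) and Itgam (chr7:128062640-128118491) both on chromosome 7. Fcgr4 lies at chr1:171018920-171029761, Spp1 at chr5:104435118-104441050, Gpnmb at chr6:49036546-49070929, Adgre1 at chr17:57358691-57483527, Csf1r at chr18:61100598-61132149 and Ms4a7 at chr19:11321039-11336146.

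**Figure D3:**
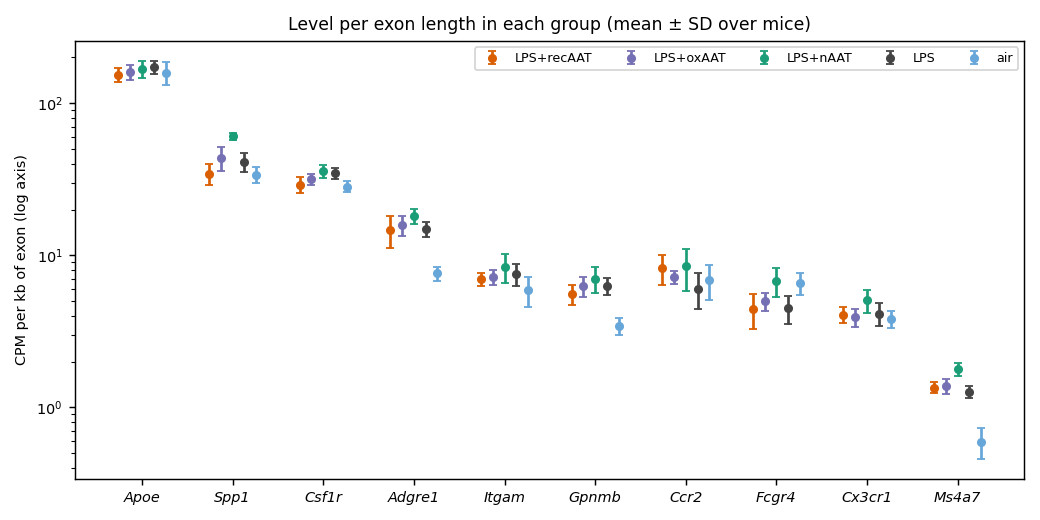
CPM per kb of exon (y axis, log scale) of the 10 genes (x axis, in order of their level in LPS), as mean ± SD over the mice of each group. Apoe is highest and Ms4a7 lowest in all 5 groups, and air lies apart from the other groups for Adgre1, Gpnmb and Ms4a7.

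How the 10 genes varied among mice of the same group was read from the 20 LPS-exposed libraries, after subtracting the mean of each group from log2 CPM. None of the 45 pairs passed a permutation test within groups (two-sided, 100000 draws, Benjamini-Hochberg over 45 pairs), while 7 had an unadjusted p under 0.05. The signs were 35 positive and 10 negative, with a median r of 0.28. The largest values were those of Cx3cr1 with Itgam, r = 0.65 (adjusted permutation p = 0.21), rho = 0.60 (adjusted permutation p = 0.17), and of Ccr2 with Itgam, r = 0.63 (adjusted permutation p = 0.21), rho = 0.60 (adjusted permutation p = 0.17). Without the 2 libraries farthest from the median of the pair's first gene, r was lower for both, at 0.39 and 0.36. Adgre1 with Gpnmb, which rose together after LPS, had r = 0.56 (adjusted permutation p = 0.21), rho = 0.51 (adjusted permutation p = 0.32), and r = 0.32 without the 2 such libraries of Adgre1. Apoe with Csf1r had r = 0.54 (adjusted permutation p = 0.21), rho = 0.51 (adjusted permutation p = 0.32), and r = 0.53 without the 2 such libraries of Apoe. Ms4a7 and Gpnmb had r = -0.25 (adjusted permutation p = 0.54) and rho = -0.25 (adjusted permutation p = 0.58).

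**Figure D4:**
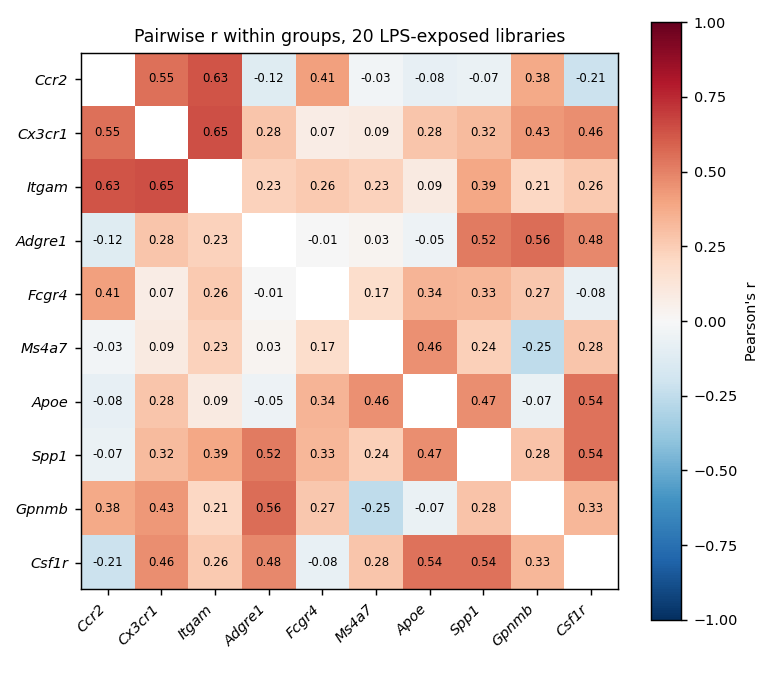
Pearson's r of log2 CPM between each pair of the 10 genes over 20 LPS-exposed libraries after subtracting group means (colour and printed values). Cx3cr1, Itgam and Ccr2 hold the largest values, and none of the 45 pairs passed the permutation test.

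The genes most like each member were found by Pearson's r of log2 CPM over the same 20 libraries, with no group mean subtracted, among 12983 other named genes of average log2 CPM of at least 1. These values describe the libraries, which share groups and library sets, and as maxima over all these genes they carry no test. Spp1 was most like Mpp1 (r = 0.91) and Itgb2 (0.90), the second being the partner chain of ITGAM. Csf1r was most like Ctsa, a lysosomal protease gene (r = 0.93), and Ap1b1 (0.92), and Arsb, a lysosomal enzyme gene, was among those most like Adgre1 (0.87). Ccr2 was most like Ms4a6c (0.87) and Ppp1r3d (0.82), and Ms4a7 most like Glrx (0.80) and the cyclin gene Ccnb2 (0.76). Apoe had Eif4a3 (0.90) and Ppdpf (0.89), Gpnmb had Irf2 (0.80) and Egfem1 (0.77), and Cx3cr1 had Lcp2 (0.80) and Tifab (0.76). Itgam had Nfam1 (0.80) and Fyb (0.79), and Fcgr4 had the lectin gene Clec4b1 (0.80) after Slamf9 (0.81).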

How the data were processed

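RNA-seq counts from lungs of 23 mice were used. The authors deposited raw, unnormalized read counts by Ensembl gene ID. Per the labels' protocols, libraries came from a stranded poly(A) kit, and the submitters' processing notes list HTSeq 0.11.1, STAR 2.4.0.1, Trimmomatic (0.36 and 0.38), FastQC 0.11.8 and the build GRCm38. Strand setting and annotation were not given in the sources used here. Among the rows, 5 are summaries that entered neither library sizes nor tests: 6.79% to 13.1% of tallied reads fell on no feature, 1.12% to 1.39% were ambiguous and 4.09% to 6.08% not unique. Symbols came from GENCODE M21 (40254 of 41388 IDs), and promoter sequences from RefSeq (GRCm38.p6), which matched 8 of the 10 members.

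Counts of all libraries were fitted in 1 edgeR 4.0.16 model (R 4.3.3; a mean per group, TMM factors 0.978 to 1.03, filterByExpr, robust quasi-likelihood, two-sided), with Benjamini-Hochberg adjustment over 17148 genes and calls at an adjusted p under 0.05. The fold change divided by the root of F gave SEs, and 95% intervals used the t distribution on the gene's degrees of freedom. CPM are TMM-scaled. P-values weigh a difference between group means against the spread between mice, estimated over all groups together. In LPS against air the SE was largest for Ccr2 (0.23) and Fcgr4 (0.21). Ms4a7, with the fewest counts, had an SE of 0.15. The script was tested on simulated data. Alternatives were DESeq2 1.42.0 size factors or Wald test, library totals, other filters, only the groups compared, a block for the mouse numbers' last digit, the library set (mt-Nd6 below or above 2% of mt-Nd5) as a term or 1 set alone, and leaving out each library.

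Values of all 10 members are given singly or as ranges in each comparison. For other lists, up to 3 genes of smallest p in LPS against air and up to 2 called genes in each AAT group against LPS are named. The genes most like each member are the 2 of largest r, of which 1 is not reported here. The members and lists were chosen with earlier results of these data known.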

Additional observations from a re-analysis of the deposited data

Results flagged for a closer look

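Ms4a7 had 1 library far from the others of its group. In LPS+nAAT, replicate 4101 measured 6.54 CPM, and its gap to the next library was 0.886 of the range of the group, above the critical value of 0.71 for 5 libraries. It was the only such library among 40 sets of 5 tested (10 genes in the 4 LPS-exposed groups), where chance alone flags about 1 in 20.

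Spp1 differed between 2 AAT preparations given after the same LPS exposure. The log2 fold change of LPS+recAAT against LPS+nAAT was -0.82 ± 0.12, adjusted p = 0.00202, with 56.5 ± 8.79 CPM in LPS+recAAT and 99.8 ± 5.87 CPM in LPS+nAAT (SD), lower in 5 of 5 libraries. This contrast is itself the test of the difference between the effects of the 2 preparations. The groups lie in different library sets, and with the set in the model the value was -0.81 and no longer passed (adjusted p = 0.315). That fit can tell set from AAT only through LPS+oxAAT, with 2 libraries of the first set and 3 of the second. For Spp1 those of the first set were the lowest and the highest of that group, at 53.8 and 90.5 CPM.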

How the results depend on the processing

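The counts of members called in LPS against air (3), LPS+oxAAT against LPS (0) and LPS+recAAT against LPS+oxAAT (0) were the same under every alternative run. In LPS+nAAT against LPS the count of 1 became 3 by the DESeq2 Wald test and 0 in a fit of only these groups or in the first library set alone, and ranged from 0 to 1 with 1 library left out. In LPS+recAAT against LPS it ranged from 0 to 1. In LPS+recAAT against air the count of 3 was 1 with the library set as a term and 2 to 4 with 1 library left out (Fcgr4, lower, joined without replicate 6105), and in LPS+nAAT against air that of 4 was 6 by DESeq2. In LPS+oxAAT against LPS+nAAT it was 1 by DESeq2 and 0 to 1 with 1 library left out, and in LPS+recAAT against LPS+nAAT 3 by DESeq2, 0 with the set as a term and 1 to 2 with 1 library left out. Apart from fits that leave out samples, the cause of these shifts was not tested. Shares of all tested genes were counted for the main edgeR fit only, so the member counts by DESeq2 and the other alternatives have none beside them. Signs turned, without a call, for Adgre1 in LPS+oxAAT against LPS (-0.095 with the set, -0.098 in the first set), Cx3cr1 in LPS+recAAT against LPS (0.16 with the set), and Apoe with the set in LPS+recAAT against air (0.102) and against LPS+nAAT (0.0164). With 1 library left out, Ccr2 in LPS against air ranged from -0.298 to 0.0495, around -0.18 over all libraries, and Apoe in LPS+recAAT against air from -0.122 to 0.102, around -0.05. In 64 further cases a value without a call changed sign by less than 1 SE. Without the 2 libraries farthest from the median of the first gene named, r turned to -0.104 for Itgam with Gpnmb and to -0.129 for Spp1 with Gpnmb. The mouse numbers share a last digit across groups. Of 42 same-digit pairs, 16 had r above 0.1, with values from -0.383 to 0.354. Pairs of different digits were not compared, so these values cannot decide whether mice were paired. The digit was left out of the main model. With this digit as a replicate block, the counts were 3 in LPS against air and 1 in LPS+nAAT against LPS, as without it, and Csf1r passed in LPS+nAAT against air (0.35, adjusted p = 0.0433).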
